A study of Mus musculus with 10 samples.

Results

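Glutathione synthesis and recycling genes were followed here through acetaminophen injury of the mouse liver. The group comprised 9 genes listed by their role: the synthesis genes Gclc, Gclm and Gss, the glutathione reductase gene Gsr, the breakdown gene Ggt1, and the glutathione peroxidase genes Gpx1, Gpx2, Gpx3 and Gpx4. They were found by symbol among 31473 gene names on the array, on 10 of 39429 probes, with 2 probes for Gsr and 1 for each other gene. Of these genes, 8 were tested among 23998 genes in all, and Ggt1 was not tested because its probe was hardly above background.

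Liver RNA was compared on 10 Agilent 2-colour arrays, 2 for each of 5 times after injection (3, 8, 24, 48 and 72 h). Treated animals were female C57BL/6 mice, 8 weeks old, that had fasted for 24 h and then received acetaminophen intraperitoneally at 350 mg/kg in phosphate-buffered saline. Control animals were of the same strain, sex and age, shared the fast, and received the saline alone, and a control mouse was hybridised beside a treated mouse on every array. Within a time the labels give the mice of a group different numbers, the same numbers recur at other times, each array holds a single control liver (Cy3 dye) and a single treated liver (Cy5 dye), and no allele or transgene is named. Treated RNA always carried Cy5, so at any single time treatment and dye bias cannot be told apart for a probe, but a constant dye bias drops out of differences between times. A lower value in whole liver cannot separate fewer cells of a type from less RNA per cell.

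Glutathione is a tripeptide of glutamate, cysteine and glycine, and the liver makes it in large amounts. Glutamate-cysteine ligase, a complex of the catalytic subunit GCLC and the modifier subunit GCLM, carries out the first and usually limiting step, and glutathione synthetase (GSS) adds glycine. Glutathione peroxidases spend it on peroxides, glutathione reductase (GSR) restores the oxidised form with NADPH, and gamma-glutamyl transferase (GGT1) begins its breakdown outside the cell. Acetaminophen overdose is the textbook case of hepatic glutathione loss, because the reactive metabolite of the drug, made by cytochrome P450 enzymes, binds glutathione.

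Each probe was a 60-base oligonucleotide, and its sequence defines which transcript was read. The probes of 4 members are shown, in lower case and 5′ to 3′, because they cover synthesis genes that rose at 48 h and peroxidases that moved in opposite directions there. The longest run of bases shared by the probes of any pair of members was 7.
Gclm: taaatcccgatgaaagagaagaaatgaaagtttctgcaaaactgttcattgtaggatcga
Gss: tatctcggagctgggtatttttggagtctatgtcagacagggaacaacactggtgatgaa
Gpx1: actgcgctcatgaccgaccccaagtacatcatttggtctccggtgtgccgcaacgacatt
Gpx4: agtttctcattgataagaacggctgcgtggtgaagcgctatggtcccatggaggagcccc
By the coordinates in the files (mm9), the Gclm probe ran from chr3:121962174-121964809 on the plus strand and the Gss probe from chr2:155389432-155390531 on the minus strand. The Gpx1 probe was at chr9:108242276-108242335 and the Gpx4 probe at chr10:79518691-79518842, both on the plus strand. The Gclm, Gss and Gpx4 probes spanned 2636, 1100 and 152 genomic bases, more than their 60 bases, and so joined separate stretches of the genome. The other members' probes were at chr9:77641296-77641355 for Gclc, chr8:34808488-34808547 and chr8:34808413-34808472 for Gsr, chr10:75048435-75048670 for Ggt1, chr12:77893402-77893461 for Gpx2 and chr11:54723436-54723495 for Gpx3. Exon and UTR annotation of the probes was not analysed here.

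The number of members called differed between times, which is a count and not a test of change between them. Nothing passed the test at 3 h, 4 of 8 tested genes rose at 8 h (3 of them changed sign under median centring), 3 rose and 1 fell at 24 h (1 riser changed sign likewise), 7 rose and 1 fell at 48 h, and nothing passed at 72 h. Gclc, the catalytic subunit gene, led at 8 h with a 9.90-fold rise, and Gsr had the largest rise at 24 h after Gclc. Gpx1 was the single member that fell, 3.49-fold at 24 h and 2.64-fold at 48 h. A gene was called when limma's moderated test (2 arrays per time, 5 residual degrees of freedom) gave a Benjamini-Hochberg adjusted p under 0.05 over all 23998 genes.

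The same test over all genes gives the background of these counts. At 3 h 7.44% of all genes were called (3.36% rose, 4.08% fell), and 3 members had an unadjusted p under 0.05, as did 5864 of all genes. The share of all genes called was 12.9% at 8 h (5.34% rose, 7.58% fell), 10.9% at 24 h (3.79% rose, 7.09% fell) and 31.4% at 48 h (17.9% rose, 13.5% fell). At 72 h the share was 0% (0 rose, 0 fell), with an unadjusted p under 0.05 in 2 members and in 767 of all genes. The median log2 ratio of treated over control among the 8 tested members was -0.05, 0.47, 0.24, 0.88 and -0.02 at 3, 8, 24, 48 and 72 h, against a median within 0.02 of 0 for all genes at each time. Between the 2 arrays of a time, log2 ratios of all genes correlated at 0.68, 0.80, 0.76, 0.86 and 0.27, lowest at 72 h. All 8 tested members were well above background in the control channel on every array, so the filter on dim probes did not depend on their response.

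Scaling bears on the early counts. Centring each array on its median in place of loess moved the median of all genes to -0.24 at 3 h and -0.18 at 8 h. It changed the split of called genes from 807 higher and 979 lower to 1002 and 4999 at 3 h, and from 1282 and 1819 to 162 and 2368 at 8 h. At 24 h the split went from 910 and 1701 to 26 and 728, and at 48 h from 4306 and 3236 to 2518 and 382. Under that scaling, 1 member was called at 8 h (Gclc) and 1 at 24 h (Gpx1).

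**Figure D1:**
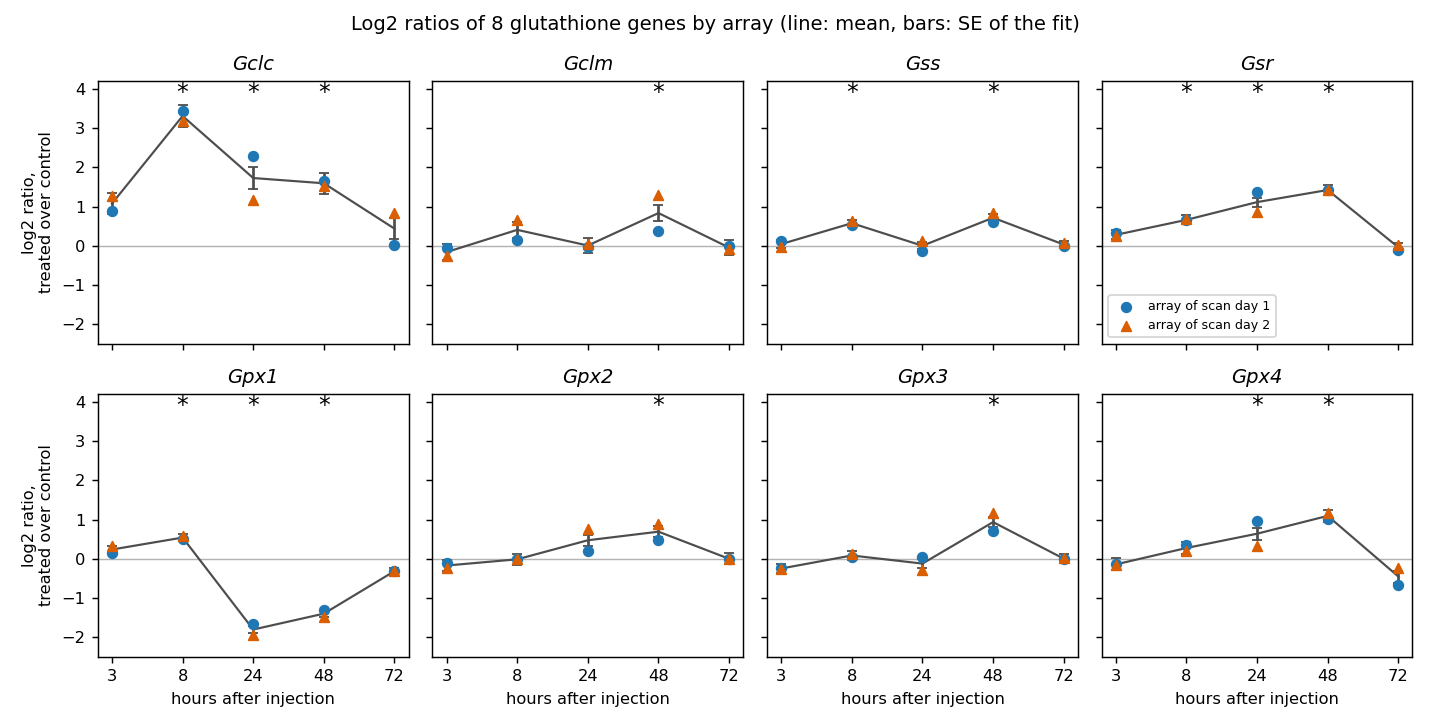
Log2 ratio of treated over control on each array (y axis) against hours after injection (x axis) for the 8 tested genes; circles and triangles are arrays of the 2 scan days, the line joins the means of 2 arrays, bars are the SE of the fit and stars mark adjusted p under 0.05. Gclc stands at 3.18 and 3.44 at 8 h, Gpx1 lies below 0 on all arrays at 24, 48 and 72 h, and most genes return to near 0 at 72 h; under median centring the 8 h values of Gss, Gsr and Gpx1 and the 24 h value of Gpx4 change sign.

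In what follows, the values of a time point are given in the order of scan day, so each is also the value within its batch. Gclc encodes the subunit that joins glutamate to cysteine. Its log2 ratio was 0.89 and 1.26 at 3 h, 3.44 and 3.18 at 8 h, 2.30 and 1.16 at 24 h, 1.65 and 1.53 at 48 h, and 0.03 and 0.84 at 72 h. Both 8 h arrays stood above every other array, and the 24 h and 48 h arrays overlapped. The normalized log2 intensity in control livers was 11.38 and 11.63 at 3 h, 10.97 and 11.19 at 8 h, 11.78 and 12.35 at 24 h, 11.70 and 12.20 at 48 h, and 11.94 and 12.47 at 72 h. In treated livers it was 12.27 and 12.89, 14.41 and 14.36, 14.07 and 13.51, 13.35 and 13.73, and 11.97 and 13.31 at the same times. The 2 groups did not overlap from 3 to 48 h and did overlap at 72 h. Here and below, such separation with 2 arrays per time is a description and not a test. Its share over all genes was not counted.

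By the fit, Gclc was at 1.08 ± 0.27 (SE, n = 2 arrays) at 3 h, which missed the limma threshold (adjusted p = 0.0551). It rose at 8 h (3.31 ± 0.27, adjusted p = 0.000735), at 24 h (1.73 ± 0.27, adjusted p = 0.00554) and at 48 h (1.59 ± 0.27, adjusted p = 0.00361). At 8 h it ranked 23 of all tested genes by the size of its change. At 72 h the fitted value was 0.44. The order of times was 8, 24, 48, 3 and 72 h, and no step between neighbouring times passed the test for this gene: 3 to 8 h was +2.23 ± 0.38 (limma adjusted p = 0.0527) and 8 to 24 h was -1.58 ± 0.38 (adjusted p = 0.0536). The 24 h call was lost under median centring (0.97, adjusted p = 0.346) and with the slide as a block (1.65, adjusted p = 0.0797).

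Gclm encodes the modifier subunit, which eases feedback inhibition of the enzyme by glutathione. Its log2 ratio was -0.05 and -0.27 at 3 h, 0.15 and 0.66 at 8 h, -0.02 and 0.03 at 24 h, 0.38 and 1.29 at 48 h, and -0.02 and -0.08 at 72 h. The highest 8 h array exceeded the lower 48 h array, so those times overlapped. The 48 h mean of 0.83 ± 0.20, a 1.78-fold rise, passed the limma test (adjusted p = 0.0163), while the 8 h mean of 0.40 did not (adjusted p = 0.261). Its 48 h call rested on 1 array: without the array of treated mouse 3 the value was 0.38 (limma adjusted p = 0.242). With the slide as a block it was 0.95 (adjusted p = 0.0543).

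The subunit genes of the same enzyme had their highest mean ratios at different times, Gclc at 8 h and Gclm at 48 h. In treated livers, however, the mean normalized log2 level of both was highest at 8 h (14.39 for Gclc, 8.98 for Gclm). At 48 h treated Gclm averaged 8.73, and its control mean was then the lowest of any time (7.90, against 8.58 at 8 h). The difference between the subunits was not tested. Their log2 ratios correlated at 0.31 (Pearson r) over the 10 arrays, a description only, as the arrays share probes' dye effects and time points.

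Gss encodes the enzyme of the second step of synthesis. Its log2 ratio was 0.12 and -0.04 at 3 h, 0.53 and 0.62 at 8 h, -0.13 and 0.13 at 24 h, 0.60 and 0.83 at 48 h, and -0.01 and 0.07 at 72 h. All 8 h and 48 h arrays were above all arrays of the other times. Gss rose at 8 h (0.57 ± 0.09, limma adjusted p = 0.00758) and at 48 h (0.71 ± 0.09, adjusted p = 0.00106), but with median centring the 8 h value was -0.10. Between them it stood at -0.00 at 24 h, and it was the member with the most changes between neighbouring times. It fell by 0.58 from 8 to 24 h (adjusted p = 0.043), rose by 0.71 from 24 to 48 h (adjusted p = 0.0156) and fell by 0.68 from 48 to 72 h (adjusted p = 0.0117). The steps from 8 to 24 h and from 48 to 72 h were not called under median centring. With the slide as a block, those from 8 to 24 h and from 24 to 48 h were not called. The step from 24 to 48 h was also lost with the scanner software's ratio.

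The 8 h call of Gss was also lost with the scanner software's own ratio and without either 8 h array, and so were those of Gsr and Gpx1. In control livers Gss ranged from 9.03 to 9.86 on the normalized log2 scale and in treated livers from 9.03 to 10.48.

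Gsr restores reduced glutathione from its disulphide. On the brighter of its probes the log2 ratio was 0.31 and 0.24 at 3 h, 0.65 and 0.67 at 8 h, 1.38 and 0.85 at 24 h, 1.43 and 1.41 at 48 h, and -0.10 and 0.02 at 72 h. Every array at 8 h was above every array at 3 h and 72 h, and both 48 h arrays were above all others. Control livers read 11.02 and 11.08, 11.07 and 11.29, 11.31 and 11.97, 11.70 and 11.90, and 11.09 and 11.39 on the normalized log2 scale from 3 to 72 h. Treated livers read 11.33 and 11.32, 11.72 and 11.96, 12.68 and 12.82, 13.13 and 13.31, and 10.99 and 11.41. Treated and control values did not overlap at any time but 72 h, although Gsr was not called at 3 h (limma adjusted p = 0.19).

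Gsr rose at 8 h by 0.66 ± 0.12 (limma adjusted p = 0.0104; -0.06 under median centring), at 24 h by 1.11 ± 0.12 (adjusted p = 0.000823) and at 48 h by 1.42 ± 0.12, a 2.68-fold rise (adjusted p = 0.000167). Its order of times was 48, 24, 8, 3 and 72 h. None of the increases between neighbouring times passed the test (adjusted p = 0.292, 0.165 and 0.288), and the drop from 48 to 72 h did (-1.46 ± 0.16, adjusted p = 0.0019). The 24 h call was lost under median centring (0.41, adjusted p = 0.648), and so was that of the drop from 48 to 72 h.

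After loess both Gsr probes were above 0 at 8, 24 and 48 h and differed in size (the brighter was at -0.06 at 8 h under median centring). The dimmer probe, whose site lies beside that of the brighter one, gave -0.08 and -0.12 at 3 h, 0.90 and 0.92 at 8 h, 0.99 and 0.61 at 24 h, 2.14 and 2.70 at 48 h, and -0.04 and -0.17 at 72 h. At 48 h both of its arrays were above both arrays of the brighter probe. Its fitted value was 2.42 ± 0.14, a 5.34-fold rise (limma adjusted p = 5.21e-05). On this probe the step from 24 to 48 h passed the test (+1.62 ± 0.19, adjusted p = 0.00487), which it did not on the brighter probe.

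**Figure D2:**
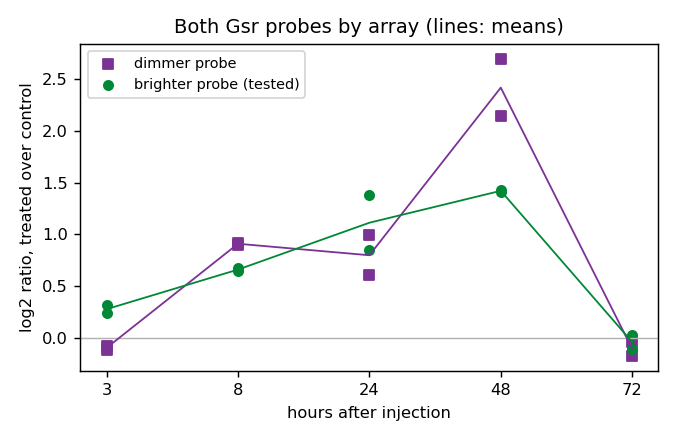
Log2 ratio of treated over control (y axis) against hours after injection (x axis) for the 2 Gsr probes, with a point per array and lines joining the means of 2 arrays. The dimmer probe stands at 2.14 and 2.70 at 48 h, the brighter at 1.43 and 1.41, and both are within 0.2 of 0 at 72 h.

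Ggt1, the gene of the cell-surface enzyme that starts glutathione breakdown, was at the limit of detection. Its probe was well above background in 1 of 10 control channels (24 h) and in 0 of 10 treated channels, so no fold change was given. The genes of the remaining pathway are described further on.

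The peroxidase genes went separate ways. Gpx1 encodes the abundant cytosolic peroxidase, a selenoprotein. Its log2 ratio was 0.15 and 0.32 at 3 h, 0.49 and 0.59 at 8 h, -1.67 and -1.94 at 24 h, -1.31 and -1.49 at 48 h, and -0.31 and -0.32 at 72 h. All arrays to 8 h were above 0 and all later arrays below it. Control livers read 15.67 and 15.44, 15.67 and 15.19, 15.39 and 15.00, 14.74 and 14.41, and 15.28 and 15.33 on the normalized log2 scale from 3 to 72 h. Treated livers read 15.82 and 15.76, 16.16 and 15.78, 13.72 and 13.06, 13.43 and 12.92, and 14.97 and 15.01. The groups did not overlap at any time, and at 24 and 48 h the treated values lay more than 0.9 below the controls of the same time. At 3 and 72 h Gpx1 was not called (limma adjusted p = 0.162 and 0.939).

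Gpx1 rose by 0.54 ± 0.09 at 8 h (limma adjusted p = 0.00922; -0.19 under median centring), fell by 1.80 on the log2 scale at 24 h (SE 0.09, adjusted p = 6.52e-05) and fell by 1.40 at 48 h (SE 0.09, adjusted p = 8.30e-05). The 8 h call also ended with the slide as a block (0.48, adjusted p = 0.0643) and with an intensity trend in the prior (adjusted p = 0.0601). At 72 h it stood at -0.31 (adjusted p = 0.939). The change from 8 to 24 h was the largest step of any member, -2.35 ± 0.13 (adjusted p = 0.000563), and the recovery from 48 to 72 h was +1.08 ± 0.13 (adjusted p = 0.0023). Neither step was called under median centring, and the first was not called with the slide as a block. The F test over the 5 times ranked Gpx1 29 of all genes (adjusted p = 0.000347). The 24 h value kept its call in all 14 alternative settings (-2.63 to -1.67), not all of them separate. The 48 h value was -0.62 under median centring (adjusted p = 0.436).

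Gpx4 encodes the peroxidase that acts on lipid hydroperoxides in membranes and is known for its part in ferroptosis. Its log2 ratio was -0.13 and -0.16 at 3 h, 0.35 and 0.20 at 8 h, 0.95 and 0.32 at 24 h, 1.01 and 1.17 at 48 h, and -0.66 and -0.24 at 72 h. Both 48 h arrays were above all others and both 72 h arrays below all others. In control livers it read 12.84 and 12.69, 12.56 and 12.44, 12.60 and 13.08, 12.66 and 12.36, and 13.06 and 12.78 on the normalized log2 scale. In treated livers it read 12.71 and 12.53, 12.91 and 12.64, 13.55 and 13.41, 13.68 and 13.53, and 12.39 and 12.54. The groups were apart at 8, 24, 48 and 72 h and overlapped at 3 h, with the treated livers the lower at 72 h. Gpx4 was not called at 8 h or 72 h.

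Gpx4 rose 2.13-fold at 48 h (1.09 ± 0.15, limma adjusted p = 0.0015). It then dropped by 1.55 to 72 h (SE 0.22, adjusted p = 0.00414, not called under median centring). At 24 h it also passed, at 0.64 ± 0.15 (adjusted p = 0.0349), but this turned to -0.12 under median centring, was 0.32 without the array of treated mouse 1, and missed the threshold with scan day (adjusted p = 0.0527) or slide (adjusted p = 0.211) as a block. So the opposed movement of Gpx1 and Gpx4 was measured at 48 h, when both passed after loess, and at 24 h with those limits. Under median centring Gpx1 was not called at 48 h either (-0.62). The gap between them was not tested.

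**Figure D3:**
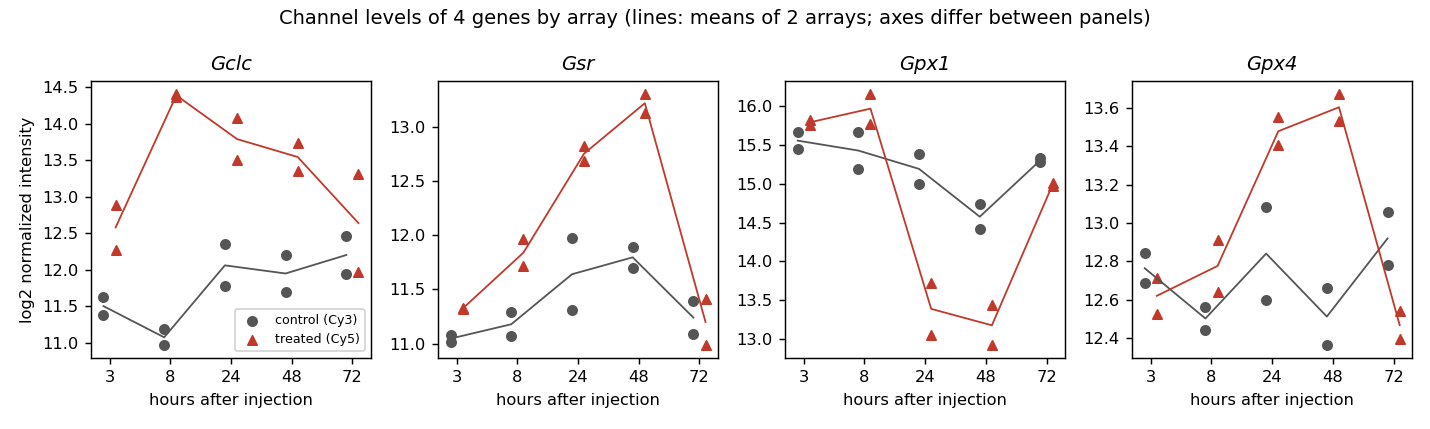
Normalized log2 intensity (y axis, with a different range in each panel) against hours after injection (x axis) for Gclc, Gsr, Gpx1 and Gpx4; circles are control livers (Cy3), triangles treated livers (Cy5), and lines join the means of 2 arrays. Treated Gclc peaks near 14.4 at 8 h, treated Gsr peaks above 13 at 48 h, treated Gpx1 falls to 12.92 at 48 h, and treated Gpx4 is above its controls at 24 and 48 h.

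Gpx2, known mainly as the epithelial peroxidase of the gut, and Gpx3, the secreted plasma form, were dim. Normalized log2 levels ran from 7.30 to 8.54 for Gpx2 and from 7.27 to 8.78 for Gpx3 over both channels. The treated channel of Gpx2 was not well above background on 1 array (3 h), and that of Gpx3 was not on 2 arrays (3 h and 72 h). No spot of any member was saturated or marked as an outlier by the scanner software.

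The log2 ratio of Gpx2 was -0.12 and -0.23 at 3 h, -0.01 and -0.02 at 8 h, 0.19 and 0.76 at 24 h, 0.49 and 0.89 at 48 h, and 0.00 and -0.00 at 72 h. The 24 h and 48 h arrays overlapped and were above all the others. Gpx2 rose at 48 h (0.69 ± 0.14, limma adjusted p = 0.00764) and did not pass at 24 h (0.47 ± 0.14, adjusted p = 0.0785). Its 48 h call ended with the slide as a block (0.55, adjusted p = 0.0687) and without the array of treated mouse 3 (0.49, adjusted p = 0.133). At 24 h it passed without background correction (0.84), with the scanner software's ratio (1.17) and without the array of treated mouse 1 (0.76).

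Gpx3 was called at 48 h alone. Its log2 ratio was -0.24 and -0.26 at 3 h, 0.05 and 0.11 at 8 h, 0.05 and -0.29 at 24 h, 0.70 and 1.17 at 48 h, and -0.01 and 0.01 at 72 h. Both 48 h arrays were above every other array. The 48 h rise was 0.94 ± 0.12, or 1.91-fold (limma adjusted p = 0.00105), the step up from 24 h was +1.06 ± 0.17 (adjusted p = 0.0108), and the step down to 72 h was -0.93 ± 0.17 (adjusted p = 0.00991). The step down was not called under median centring. The step up was not called with the slide as a block or with the scanner software's ratio. The 48 h rise kept its call in all 14 alternative settings, not all of them separate.

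Over time as a whole, the moderated F test called 7 of 8 members, against 23.3% of all genes, and Gclm was the exception (limma adjusted p = 0.122). Between neighbouring times, 0 of 8 passed from 3 to 8 h (all genes 0.825%, with 0.533% up and 0.292% down, 4 members and 4015 of all genes at an unadjusted limma p under 0.05) and 2 fell from 8 to 24 h (6.29% of all genes, with 2.47% up and 3.83% down). From 24 to 48 h 2 rose (10.5%, with 7.8% up and 2.65% down), and from 48 to 72 h 4 fell and Gpx1 rose (16.6%, with 6.56% up and 10% down). The last step had the most members called. Under median centring no member was called in that step or from 8 to 24 h. With the slide as a block none was called from 8 to 24 h or from 24 to 48 h.

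The control livers carried the fast and the vehicle alone. An F test on the control channel over the 5 times called 0 of 8 members (3.6% of all genes), although 5 of 8 had an unadjusted limma p under 0.05, as had 5057 of all genes. The widest spread of control means was that of Gclc, from 11.08 at 8 h to 12.20 at 72 h (adjusted p = 0.121). Gpx1 ran from 14.58 at 48 h to 15.56 at 3 h (adjusted p = 0.106). With scan day as a block, Gclc and Gpx1 were called, among 1718 of all 23998 genes (863 without the block). The lowest control value of Gclc and its highest ratio thus fell at the same time. Its treated level was also highest at 8 h (14.41 and 14.36). From 8 to 24 h its control mean went from 11.08 to 12.06 and its treated mean from 14.39 to 13.79, so both channels entered the drop of its ratio.

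Other genes around glutathione were counted in 8 lists of 93 genes, 91 of them tested (Dpep3 and Gpx5 were not). Of the 91, 10 rose and 3 fell at 3 h, 17 rose and 16 fell at 8 h, 15 rose and 27 fell at 24 h, 30 rose and 22 fell at 48 h, and 0 were called at 72 h. Over all genes, 3.36% rose and 4.08% fell at 3 h, 5.34% and 7.58% at 8 h, 3.79% and 7.09% at 24 h, and 17.9% and 13.5% at 48 h. Some counts, such as the falls at 3 h, lay near these shares. The same shares are the background for each single list below. Under median centring the counts were 4 risen and 28 fallen at 3 h, 5 and 7 at 8 h, 0 and 12 at 24 h, and 18 and 3 at 48 h. Over all 23998 genes they were 1002 and 4999, 162 and 2368, 26 and 728, and 2518 and 382. The genes named from these lists kept their direction under that scaling and with the scanner software's ratio, and those whose call median centring ended are given with its adjusted p. Of the gamma-glutamyl cycle and breakdown genes, 1 of 12 rose and 3 fell at 8 h, 4 fell at 24 h, and 4 rose and 3 fell at 48 h. Chac1, whose enzyme degrades glutathione inside the cell, had the largest rise of any of the 91, 4.45 ± 0.29 at 8 h (limma adjusted p = 0.000272). Chac2, its relative, fell by 1.52 at the same time (SE 0.19, adjusted p = 0.0032). The dipeptidase gene Cndp2 rose by 1.82 ± 0.22 at 48 h, and the aminopeptidase gene Lap3 fell by 1.38 at 24 h (adjusted p = 0.0621 under median centring). Under median centring 1 of these 12 genes rose and 2 fell at 8 h, 0 rose and 1 fell at 24 h, and 2 rose and 1 fell at 48 h.

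Of 17 genes for cysteine supply and glutathione transport, 5 fell and 2 rose at 24 h (4 and 0 under median centring). Cth, which makes cysteine from cystathionine, fell by 2.87 on the log2 scale (SE 0.15, limma adjusted p = 6.59e-05), and Cbs, the enzyme gene before it, fell by 1.52. Mat1a, which makes S-adenosylmethionine in the adult liver, fell by 2.82 at 24 h, and Ahcy, which hydrolyses S-adenosylhomocysteine, fell by 2.30 at 48 h (adjusted p = 0.0611 under median centring). The median of the 17 genes was -0.04 at 24 h. At 48 h 4 rose and 4 fell (3 and 1 under median centring), and at 8 h 1 rose and 3 fell (0 and 0). The 4 risen at 48 h and the 1 risen at 8 h were near the shares of all genes that rose then (17.9% and 5.34%).

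Of the NRF2 regulators and targets, genes tied to the main transcription factor of the oxidant response, 6 of 12 rose and 0 fell at 8 h, 7 rose and 0 fell at 24 h, and 6 rose and 1 fell at 48 h. Under median centring 3 of 12 rose at 8 h, 0 at 24 h and 3 at 48 h, with none fallen. With the scanner software's ratio 6 rose and 0 fell at 8 h, 8 rose and 1 fell at 24 h, and 4 rose and 3 fell at 48 h. Hmox1, the haem oxygenase gene, rose by 3.16 ± 0.19 at 8 h, Maff, a small Maf partner gene, by 3.94 ± 0.36 and Osgin1 by 3.09 ± 0.28 at the same time. Fth1, the ferritin heavy chain gene, rose by 2.58 ± 0.33 at 48 h. In the thioredoxin and peroxiredoxin list of 13, 5 rose and 5 fell at 8 h, 3 rose and 4 fell at 24 h, and 3 rose and 3 fell at 48 h. For so short a list the 48 h counts were near the shares of all genes (17.9% rose, 13.5% fell). Under median centring 1 rose and 1 fell at 8 h, 0 were called at 24 h, and 3 rose and 0 fell at 48 h. There Txnip, a thioredoxin inhibitor gene, rose by 2.98 ± 0.21 at 8 h, Txnrd1 (thioredoxin reductase) by 1.99 ± 0.14 at 8 h, Srxn1 (sulphiredoxin) by 2.83 ± 0.33 at 24 h and Prdx1 (a peroxiredoxin) by 1.81 ± 0.16 at 48 h. The calls of Txnrd1 (adjusted p = 0.0667) and Srxn1 (adjusted p = 0.0877) ended under median centring.

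NADPH is the reductant that GSR uses. Of 11 NADPH supply genes, 2 rose and 1 fell at 8 h, 2 rose and 5 fell at 24 h, and 5 rose and 3 fell at 48 h. Under median centring 0 rose and 1 fell at 8 h, 0 rose and 2 fell at 24 h, and 3 rose and 0 fell at 48 h. The pentose phosphate genes G6pdx and Pgd rose at 48 h by 2.10 ± 0.17 and 1.74 ± 0.11, when Gsr was also highest. The mitochondrial sources Idh2 and Nnt fell at 24 h by 1.81 and 1.24, and the call of Nnt ended under median centring (adjusted p = 0.0688). Among 6 glutaredoxin and glyoxalase genes, 2 rose and 1 fell at 8 h, 1 rose and 2 fell at 24 h, and 4 rose and 1 fell at 48 h. Under median centring 0 were called at 8 h, 2 fell at 24 h and 3 rose at 48 h. The glyoxalase genes Hagh and Glo1 fell by 2.38 and 1.47 at 24 h, and the glutaredoxin genes Glrx5 and Glrx rose by 1.47 and 1.14 at 48 h.

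Selenium links Gpx1, Gpx2, Gpx3 and Gpx4, whose mouse proteins carry selenocysteine. Of 17 genes for selenoprotein synthesis and other selenoproteins, 0 rose and 3 fell at 8 h, 0 rose and 7 fell at 24 h, and 4 rose and 7 fell at 48 h (under median centring 3, 3 and 1 fell). The 4 risen at 48 h were near the share of all genes that rose then (17.9%). Dio1 (a deiodinase) fell by 2.25 and Selenop, the plasma selenium carrier gene, by 1.68 at 48 h, while Selenot and Selenos rose by 1.36 and 1.30. Under median centring Selenop stood at -0.79 (adjusted p = 0.375), and Selenot (adjusted p = 0.0501) and Selenos (adjusted p = 0.061) also missed the threshold. Gpx1 fell at 24 and 48 h alongside the falling members, and Gpx2, Gpx3 and Gpx4 rose at 48 h. The other glutathione peroxidase genes Gpx6, Gpx7 and Gpx8 were not called at any time, with log2 ratios between -0.27 and 0.06. They were dim, so a missing call says little: the log2 of their summed level was 8.94 to 9.04 in control livers at 3 h.

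**Figure D4:**
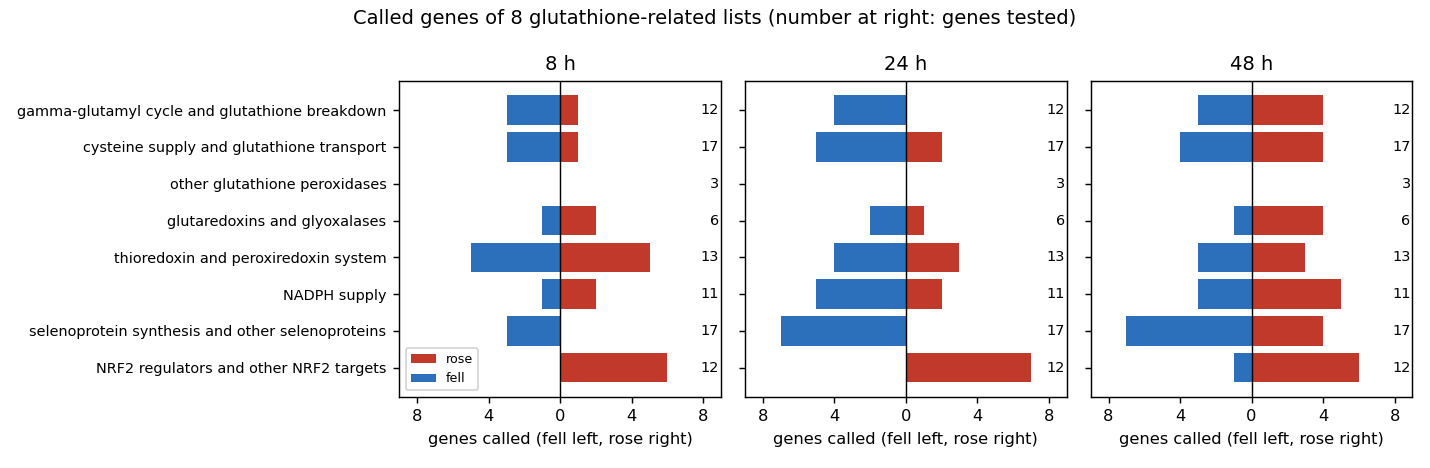
Number of genes called (x axis, fallen to the left and risen to the right of 0) in 8 glutathione-related lists (rows) at 8, 24 and 48 h, with the genes tested at the right of each row. The NRF2 list had 6, 7 and 6 genes risen, and the selenoprotein list 3, 7 and 7 fallen; under median centring the NRF2 list had 3, 0 and 3 risen and the selenoprotein list 3, 3 and 1 fallen.

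Markers of cell types were also counted. Over all genes, 5.34% rose at 8 h, 3.79% rose and 7.09% fell at 24 h, and 17.9% rose and 13.5% fell at 48 h. With so few genes in a list, the cholangiocyte, endothelial and stellate counts below lay near these shares. Of 10 hepatocyte marker genes, 2 rose at 8 h, 5 fell at 24 h, 7 fell at 48 h and 0 were called at 72 h. The log2 of their summed level at 48 h was 18.21 and 18.56 in treated against 19.17 and 19.41 in control livers. Under median centring 2 fell at 24 h and 1 at 48 h. Of 6 tested neutrophil markers (of 9), 3 rose at 24 h and 4 at 48 h. The 4 stood at 3.66 (S100a9), 3.41 (S100a8), 1.85 (Retnlg) and 0.67 (Cxcr2) at 48 h. Camp (-0.0003) and Csf3r (-0.45) were not called then. The summed level of the 6 overlapped at 48 h (14.48 to 14.86 treated, 14.64 to 14.79 control). Of 9 Kupffer cell markers 3 rose at 48 h (summed level 13.71 to 14.13 treated, 12.07 to 12.11 control). Of 7 tested recruited monocyte or macrophage markers 4 rose then (12.85 to 13.63 against 12.52 to 12.76), and of 7 tested cholangiocyte markers 2 rose and 1 fell (10.46 to 11.87 against 10.15 to 10.75). Among the sinusoidal endothelial and the stellate cell markers, 1 rose and 1 fell in each list at 48 h, and 0 lymphocyte and 0 erythroid markers passed limma's test then. Their part in the results for Gpx1, Gsr and the other members was not tested.

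Among the members, Gsr and Gpx4 had the most similar course over the 10 arrays (Pearson r = 0.985) and Gpx1 and Gpx2 the least (-0.835). Across 17534 genes with a reference symbol, the nearest to Gclc was Mdm2 (0.975), followed by Zfas1 (0.963) and Rela (0.945). The nearest to Gsr was Gpx4, then Fth1 (0.982) and Tango2 (0.976). For Gpx1 they were Dcxr (0.977), Dpys (0.969) and Gchfr (0.965), and for Gss Maip1 (0.968), Nedd4l (0.967) and Glrx (0.964). For Gclm they were Tgfbr2 (0.980), Rest (0.974) and Rsl24d1 (0.961), and for Gpx2 Nol3 (0.990), Srp19 (0.986) and Smim3 (0.984). For Gpx3 they were Fli1 (0.986), B4galt6 (0.984) and Gltp (0.979), and after Gsr, Gpx4 was nearest to Trip6 (0.968) and Eif6 (0.960). These are descriptions over arrays that share 5 time points and carry no p-value.

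The bases before the start sites of members were searched for the antioxidant response element core TGACNNNGC on both strands. In the RefSeq promoter table (GRCm38.p6), 7 of 9 members had an entry. Gclc and Gsr had none, so whether they hold the core was not examined. In windows of 250 bases the core was present in 2 of the 7, Gclm and Ggt1. Ggt1 had several windows and was not tested on the arrays. Of all 27025 genes in that table, 11.5% held it in at least 1 window. The Gclm window is shown because that gene rose at 48 h and holds a match, in capitals, on the minus strand (the core read in reverse is GCNNNGTCA), beginning 134 bases before the start at chr3:122245307-122245556.
Gclm promoter: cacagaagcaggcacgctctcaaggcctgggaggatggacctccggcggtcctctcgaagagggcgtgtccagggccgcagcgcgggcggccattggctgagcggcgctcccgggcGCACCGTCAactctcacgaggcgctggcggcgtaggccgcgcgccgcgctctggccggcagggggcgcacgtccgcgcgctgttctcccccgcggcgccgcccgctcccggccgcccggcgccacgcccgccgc
A match is a run of letters and not a measured site, and the other 5 members in that table had no such letters in their windows.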

How the data were processed

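RNA of control and treated livers was read on 10 arrays of 2 colours. Per the file headers, Agilent Feature Extraction 10.7.3.1 quantified the scans. The deposited scanner tables give linear intensity of both channels per spot and the software's log10 ratio of Cy5 over Cy3. The authors' deposited value table is a score of unstated scale: on every array it equalled 1.44 times that log10 ratio, with a median of 0, and was rescaled to log2 as an alternative.

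Intensities were corrected with normexp (offset 50) and normalized by loess within arrays in limma 3.58.1 (R 4.3.3), with control and outlier spots at weight 0. A probe was kept when well above background in a channel on both arrays of a time point (29607 of 39429), and a gene took its brightest kept probe. Probes were named through accessions in the RefSeq table where possible (26581). The test was lmFit and eBayes with a coefficient per time point over 10 arrays, two-sided, with Benjamini-Hochberg adjustment over 23998 genes. Levels per channel were taken after loess and Aquantile scaling. The number of arrays limits the precision. The fit was also run on simulated arrays, whose outcome is not given here and carries no weight in the results.

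Members, lists and the rule for naming were chosen with earlier results of these data known. All members were named, with up to 4 called genes of each list having the largest change and the 3 genes nearest to each called member over the arrays. Alternatives were another background correction, median centring, the software's ratio, the value table, other filters and priors, blocks and each array left out. The slide as a block and the dimmer Gsr probe were chosen after seeing the data. The treated mouse numbers went with scan day: deviations of same-day arrays correlated at -0.12 to 0.29 over 10 pairs, so the numbers were not taken to pair the samples.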

Additional observations from a re-analysis of the deposited data

Results flagged for a closer look

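Between neighbouring times, the treatment effect differed by limma's test of the difference itself for 5 members, in 9 steps. For Gss the difference of log2 ratios, later minus earlier, was -0.58 from 8 to 24 h, 0.71 from 24 to 48 h and -0.68 from 48 to 72 h. For Gsr it was -1.46 from 48 to 72 h. For Gpx1 it was -2.35 from 8 to 24 h and 1.08 from 48 to 72 h, the opposite sign to every other member that changed in that last step. For Gpx3 it was 1.06 from 24 to 48 h and -0.93 from 48 to 72 h, and for Gpx4 -1.55 from 48 to 72 h. A constant dye bias drops out of these differences, but the calls depended on the processing. Under median centring no member was called from 8 to 24 h or from 48 to 72 h. With the slide as a block none was called from 8 to 24 h or from 24 to 48 h. With the scanner software's ratio none was called from 24 to 48 h.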

How the results depend on the processing

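Of the 16 called member values, 7 kept their direction and their call in all 14 alternatives tried: Gclc at 8 h (2.58 to 3.44) and 48 h, Gpx1 at 24 h, and Gss, Gsr, Gpx3 and Gpx4 at 48 h. These alternatives were not all separate. The value table was the software's ratio rescaled. The mean of a gene's probes and the dimmer probe altered the ratios of no member but Gsr. Median centring in place of loess reversed 4 values, Gss (-0.10), Gsr (-0.063) and Gpx1 (-0.19) at 8 h and Gpx4 (-0.12) at 24 h, and left 1 member called at 3 h (Gclm, -0.87), 1 at 8 h, 1 at 24 h, 1 by the F test, 0 from 8 to 24 h, 1 from 24 to 48 h and 0 from 48 to 72 h. The scanner software's ratio and the authors' value table each gave 1 called at 3 h (Gclc), 1 at 8 h and 0 from 24 to 48 h. Without background correction there was 1 at 3 h, 1 from 3 to 8 h, 4 from 8 to 24 h and 8 from 48 to 72 h. An offset of 0 gave 1 at 3 h, 1 from 3 to 8 h and 1 from 24 to 48 h, and the stricter filter and the intensity trend in the prior each gave 1 at 3 h and 1 from 3 to 8 h. The cause of these shifts was not tested.

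The replicate block by scan day, which holds treated mouse numbers apart, changed the call of 1 of 40 member values (Gpx4 at 24 h, limma adjusted p = 0.0527). In the control livers it gave 2 called, among 1718 of all 23998 genes (863 without the block). The replicate block by slide gave 2 called at 24 h, 2 by the F test, 0 from 8 to 24 h and 0 from 24 to 48 h. Over all genes it left 441 risen and 1083 fallen at 24 h, against 910 and 1701 without it. At 48 h it left 2272 and 1401, against 4306 and 3236.

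Leaving out each array in turn gave 0 to 1 called at 3 h, 1 to 4 at 8 h, 3 to 4 at 24 h, 6 to 8 at 48 h and 0 to 0 at 72 h, 5 to 8 by the F test, 0 to 1 from 3 to 8 h, 1 to 2 from 8 to 24 h, 1 to 3 from 24 to 48 h and 3 to 7 from 48 to 72 h, and 0 to 0 in control livers. The lone array of a time was then assumed to vary like the other groups. At 3, 8, 24 and 48 h, leaving out an array of a time also lowered the number of all genes called at that time. Lower counts at those times were therefore not particular to the members. The 8 h count was 1 without either 8 h array, the 24 to 48 h count was 1 without the array of treated mouse 3 at 24 or 48 h, and the 48 to 72 h count was 3 without either 72 h array. The 8 to 24 h count was 1 without any single 3 h, 8 h or 72 h array, and the 3 h and 3 to 8 h counts were 1 without either 24 h array. Of the dim members, Gpx2 at 48 h ranged from 0.49 to 1.07 and Gpx3 at 48 h from 0.70 to 1.51 over the alternatives.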

Other observations

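The remaining pathway genes below were chosen after their values were seen. Keap1, whose protein holds NRF2 in check, rose at 24 h (1.02 ± 0.17, limma adjusted p = 0.0072) and 48 h (0.58 ± 0.17, adjusted p = 0.0337). Under median centring it was 0.42 (adjusted p = 0.703) and 1.05 (adjusted p = 0.105), and with the scanner software's ratio the 48 h value was 0.40 (adjusted p = 0.297). Nfe2l2, which encodes NRF2, was not called at any time (-0.44 to 0.22). Nqo1, a widely used NRF2 target, rose at 48 h (1.15 ± 0.24, adjusted p = 0.00858) and was not called at 8 h (0.46). Slc7a11, the cystine importer gene, was not called at any time, with its highest value 0.45 at 24 h. Abcc2, the canalicular exporter of glutathione conjugates, rose at 3 h (0.98 ± 0.10) and 8 h (1.02 ± 0.10) and fell by 0.37 at 48 h, but under median centring the values were -0.14, 0.30 and 0.21, none of them called. Ggct and Oplah, of the gamma-glutamyl cycle, rose at 48 h by 0.98 ± 0.16 and 0.89 ± 0.23, and the call of Oplah ended under median centring (adjusted p = 0.0632) and with the software's ratio (adjusted p = 0.0609). Ggt6, a relative of Ggt1, fell by 0.77 at 8 h and 0.86 at 24 h. Its 8 h call ended with the software's ratio (adjusted p = 0.0657) and its 24 h call under median centring (adjusted p = 0.0613).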
